A study of Homo sapiens with 10 samples.

Results

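The 10 genes described here, SEC61G, LANCL2, VOPP1, GBAS, MRPS17, PSPH, CCT6A, SUMF2, PHKG1 and CHCHD2, lie beside EGFR on the short arm of human chromosome 7 (7p11). They were chosen by symbol, as genes near EGFR in a region known to be amplified in MDA-MB-468 cells, and all 10 have 1 row among the 23426 gene symbols of the deposited files. RNA was sequenced from 10 samples of 2 established breast cancer cell lines, MDA-MB-468 (basal-like, triple-negative) and ZR75-1 (luminal). Each line was treated for 6 h with DMSO, the solvent (n = 2), or with PKC412, the staurosporine derivative midostaurin that inhibits many kinases (n = 3). The sample labels give PKC412 at 1 μM, while some figure legends of the study give a lower dose. Triplicates are described in the methods, and the files used here hold 2 DMSO samples for each line. Nothing in the labels says which samples were separate cultures, so p-values measure the spread between these samples, which may be partly technical. Values are FPKM (fragments scaled to transcript length and sequencing depth). Comparisons of level between genes rest on this scaling, and GC content, overlapping genes and the annotation used may still affect them. FPKM sums ran from 599228 to 835069 per sample, and the number of reads behind a value is unknown. The RNA came from whole cultures, so fewer cells with a transcript and less of it per cell cannot be told apart.

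Both lines carried the markers of their labels. The 5 basal markers were all higher in MDA-MB-468, where KRT5 ran from 919 to 1091 FPKM against 0 to 0.287 in ZR75-1. Of 6 luminal markers, 5 were higher in ZR75-1, where GATA3 ran from 43.0 to 57.8 FPKM against 4.96 to 6.31. PGR, the progesterone receptor, did not pass the test. Of the markers of other cells, the leukocyte genes PTPRC and CD3E stayed at or under 0.0651 FPKM in every sample and PECAM1 at or under 0.89 FPKM. COL1A1 reached 11.1 and ACTA2 3.52 FPKM in ZR75-1, against at most 1.52 and 0.496 FPKM in MDA-MB-468. PKC412 samples were higher for PECAM1 in MDA-MB-468 (log2 effect 0.31, adjusted p = 0.040) and for COL1A1 in ZR75-1 (1.49, adjusted p = 0.018), and the part of such cells in the results was not tested.

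EGFR is a receptor tyrosine kinase of the ERBB family. Amplification copies a stretch of chromosome many times over, and the copied stretch holds neighbouring genes along with the one it is named for. Genes carried along in this way can be transcribed from the extra copies whatever their own function is. The neighbours of EGFR have unrelated roles. SEC61G is a subunit of the channel through which proteins enter the endoplasmic reticulum, PSPH makes the last step of serine synthesis, CCT6A folds proteins as part of the CCT ring, and MRPS17 is a protein of the mitochondrial ribosome. DNA copy number was not measured here.

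In GENCODE release 29 on GRCh38, matched by symbol, SEC61G lies at chr7:54752250-54759974 on the minus strand, upstream of EGFR at chr7:55019021-55211628 on the plus strand. On the other side of EGFR follow LANCL2 at chr7:55365448-55433742 (plus) and VOPP1 at chr7:55436056-55572988 (minus). Farther out stand GBAS, now called NIPSNAP2, at chr7:55951793-56000181 (plus) and MRPS17 at chr7:55951819-55956501 (plus). In GENCODE, MRPS17 lies whole within the span of GBAS on the same strand. The RefSeq promoter window of GBAS is chr7:55964335-55964584 (plus), so its RefSeq start lies past the end of MRPS17. PSPH at chr7:56011051-56051604 (minus) and CCT6A at chr7:56051630-56063989 (plus) start back to back, with 25 bases between them. SUMF2 at chr7:56064002-56080670 (plus), PHKG1 at chr7:56080283-56092996 (minus) and CHCHD2 at chr7:56101569-56106576 (minus) end the row. All 10 are protein-coding. SUMF2 and PHKG1 overlap by 388 bases on opposite strands, and SEC61G overlaps an antisense gene by 550 bases. Which annotation the authors' counting used, and whether it used strand, is not given in the sources used here. Values of genes that overlap in GENCODE, including GBAS and MRPS17, are therefore uncertain where reads could be divided between them. The files give no coordinates, and the submitters' notes name hg19, another build.

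RefSeq promoters on GRCh38.p14 were found for 7 of the 10 genes and not for LANCL2, PSPH and CCT6A. Those of the member with the highest FPKM in MDA-MB-468 (SEC61G), the member with the highest in ZR75-1 (CHCHD2) and the member with the lowest in both (PHKG1) are shown, as the 250 bases before the RefSeq start, 5′ to 3′ on the strand of the gene. The RefSeq starts of these genes lie inside the GENCODE spans given above, so the windows overlap those spans. Capitals mark the ETS core, CCGGAA or its reverse complement TTCCGG, and the CCAAT box, CCAAT or ATTGG. They stand at chr7:54759212-54759461, chr7:56106477-56106726 and chr7:56092953-56093202, all on the minus strand.
SEC61G: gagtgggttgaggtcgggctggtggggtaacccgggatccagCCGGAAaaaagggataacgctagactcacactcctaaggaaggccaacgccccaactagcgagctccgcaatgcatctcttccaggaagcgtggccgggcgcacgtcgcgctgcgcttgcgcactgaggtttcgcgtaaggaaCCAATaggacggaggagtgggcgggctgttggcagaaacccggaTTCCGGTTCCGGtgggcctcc
CHCHD2: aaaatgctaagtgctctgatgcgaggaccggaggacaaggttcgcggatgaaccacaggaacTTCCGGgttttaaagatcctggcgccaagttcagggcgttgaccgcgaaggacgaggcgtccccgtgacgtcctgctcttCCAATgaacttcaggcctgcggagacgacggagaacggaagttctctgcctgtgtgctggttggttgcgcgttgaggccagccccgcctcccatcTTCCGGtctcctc
PHKG1: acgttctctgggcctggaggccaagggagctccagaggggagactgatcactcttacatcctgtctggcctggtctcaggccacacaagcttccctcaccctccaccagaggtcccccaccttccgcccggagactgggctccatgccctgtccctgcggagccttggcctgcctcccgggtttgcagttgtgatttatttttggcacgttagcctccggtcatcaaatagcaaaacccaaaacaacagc

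The window of SEC61G held 3 ETS cores and 1 CCAAT box, that of CHCHD2 held 2 and 1, and that of PHKG1 held neither word. Of all 35116 promoters in the table, 14.5% held an ETS core and 32.0% a CCAAT box in the same 250 bases on either strand. SEC61G had 22 CG pairs in its window and CHCHD2 had 21, against 7 in PHKG1 and a median of 11 over all promoters. A CCAAT box was also found for MRPS17 and SUMF2 and in 1 of the 7 VOPP1 entries, an ETS core in another VOPP1 entry, and neither for GBAS. The window sequences are the same reference for both lines, so they describe the genes and not the difference between the lines.

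In MDA-MB-468 SEC61G measured 12061 and 14842 FPKM in DMSO and 9262, 15859 and 10208 FPKM in PKC412. In ZR75-1 it measured 421 and 457 FPKM in DMSO and 363, 253 and 374 FPKM in PKC412. SEC61G held the first or second place among all 23426 symbols in every MDA-MB-468 sample and 1.55% to 2.26% of the summed FPKM, against places 270 to 457 in ZR75-1. The lowest MDA-MB-468 sample was 20.3 times the highest ZR75-1 sample. The difference between the lines over both agents was 5.03 on the log2(FPKM + 1) scale (SE 0.19, adjusted p = 1.8e-07, limma with Benjamini-Hochberg adjustment over all genes tested).

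LANCL2, a LanC-like protein of the cell membrane and cytosol, measured 201 and 222 FPKM in DMSO and 235, 211 and 228 FPKM in PKC412 in MDA-MB-468. In ZR75-1 it measured 3.86 and 4.68 FPKM in DMSO and 4.29, 3.26 and 5.64 FPKM in PKC412. The lines were far apart, and the samples within a line lay close together. The log2 difference was 5.37 (SE 0.13, adjusted p = 1.6e-08), above those of the other 9 neighbours. VOPP1, a protein of cytoplasmic vesicles, measured 820.5 and 836 FPKM in DMSO and 837, 840.1 and 843 FPKM in PKC412 in MDA-MB-468. In ZR75-1 it measured 60.8 and 61.4 FPKM in DMSO and 50.5, 45.8 and 55.8 FPKM in PKC412. The log2 difference of VOPP1 was 3.88 (SE 0.07, adjusted p = 4e-09).

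PSPH, phosphoserine phosphatase, measured 90.7 and 109 FPKM in DMSO and 197, 179.8 and 182 FPKM in PKC412 in MDA-MB-468. In ZR75-1 it measured 2.69 and 3.83 FPKM in DMSO and 3.89, 3.52 and 5.18 FPKM in PKC412. Every MDA-MB-468 sample exceeded every ZR75-1 sample by at least 17.5 times, with a log2 difference of 4.88 (SE 0.12, adjusted p = 2.1e-08). CCT6A, which starts 25 bases away and runs the opposite way, measured 295 and 400.1 FPKM in DMSO and 522, 417 and 475 FPKM in PKC412 in MDA-MB-468. In ZR75-1 CCT6A measured 36.9 and 63.6 FPKM in DMSO and 66.0, 29.1 and 78.1 FPKM in PKC412. The lines did not overlap, and the log2 difference was 2.96 (SE 0.29, adjusted p = 3.8e-05).

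The 3 neighbours with mitochondrial products had log2 differences of 2.51 or less, as did SUMF2 and PHKG1. MRPS17 measured 637 and 571 FPKM in DMSO and 269.8, 418 and 325 FPKM in PKC412 in MDA-MB-468. In ZR75-1 it measured 125 and 82.9 FPKM in DMSO and 74.5, 46.8 and 60.3 FPKM in PKC412. Its log2 difference was 2.51 (SE 0.19, adjusted p = 7.3e-06), with every MDA-MB-468 sample above every ZR75-1 sample. CHCHD2, a small protein of the intermembrane space that also acts as a regulator of respiratory chain genes, measured 2018 and 1952 FPKM in DMSO and 1533, 1885 and 1596 FPKM in PKC412 in MDA-MB-468. In ZR75-1 CHCHD2 measured 729 and 736 FPKM in DMSO and 674, 753 and 477 FPKM in PKC412. CHCHD2 was thus abundant in both lines, and its log2 difference was 1.43 (SE 0.14, adjusted p = 4.4e-05). GBAS, a mitochondrial protein, measured 7.72 and 15.8 FPKM in DMSO and 50.1, 23.9 and 32.7 FPKM in PKC412 in MDA-MB-468. In ZR75-1 GBAS measured 1.63 and 8.80 FPKM in DMSO and 8.70, 4.95 and 18.1 FPKM in PKC412. GBAS was the one neighbour whose lines overlapped, and the spread within its groups was wide. Its log2 difference of 1.51 (SE 0.47, adjusted p = 0.023) did not pass the threshold without the second DMSO sample of MDA-MB-468 (1.27, adjusted p = 0.089), or without the first DMSO sample of ZR75-1 (1.03, adjusted p = 0.081). Without the pair of ZR75-1 libraries with the highest slopes of log2 FPKM on GC content it was 0.83 (adjusted p = 0.10), and after adjustment of all samples for GC content and length it stayed past the threshold (1.04, adjusted p = 0.013).

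SUMF2, a paralog of the enzyme that activates sulfatases in the endoplasmic reticulum, measured 269 and 286 FPKM in DMSO and 269, 287 and 280.4 FPKM in PKC412 in MDA-MB-468. In ZR75-1 it measured 65.8 and 63.1 FPKM in DMSO and 73.5, 88.4 and 74.3 FPKM in PKC412. The log2 difference was 1.95 (SE 0.08, adjusted p = 1.8e-07). PHKG1, the muscle form of the catalytic subunit of phosphorylase kinase, had the lowest FPKM of the 10 in both lines. It measured 1.97 and 1.19 FPKM in DMSO and 0.849, 0.914 and 1.12 FPKM in PKC412 in MDA-MB-468. In ZR75-1 PHKG1 measured 0.261 and 0.304 FPKM in DMSO and 0.416, 0.212 and 0.296 FPKM in PKC412. The lines did not overlap, but the added 1 reduces the log2 difference of such a low gene, which was 0.79 (SE 0.10, adjusted p = 0.00017). The ratio of its mean FPKM was 5.59 in DMSO and 3.12 in PKC412.

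**Figure D1:**
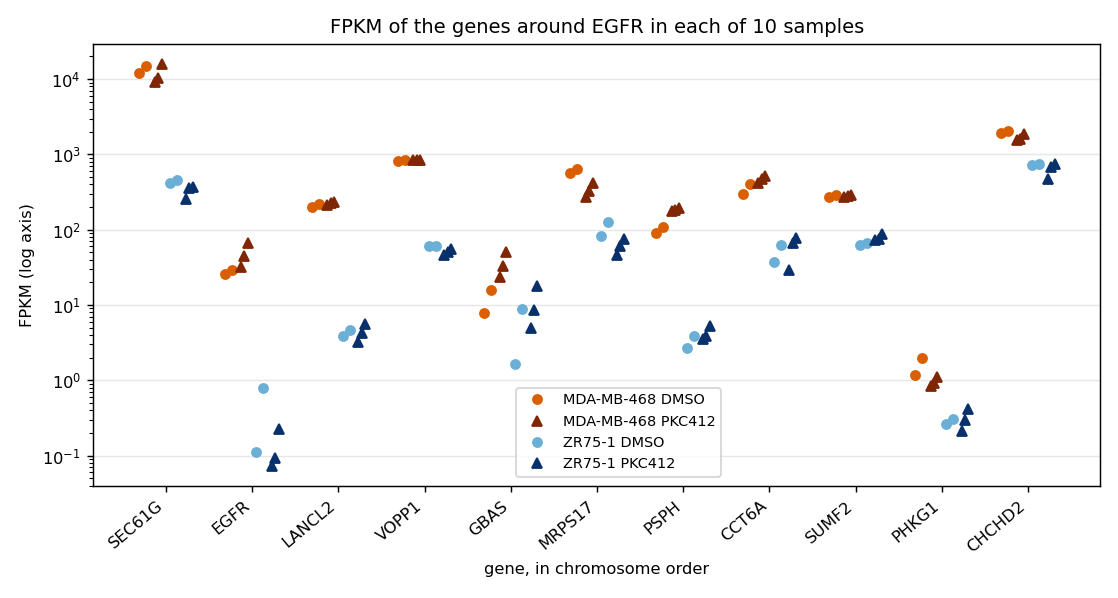
FPKM on a log axis for the 10 genes and EGFR in chromosome order, 1 point per sample, with circles for DMSO (n = 2 per line), triangles for PKC412 (n = 3 per line), orange and brown for MDA-MB-468 and blue for ZR75-1. The lines are apart for every gene but GBAS, from SEC61G at 9262 to 15859 FPKM in MDA-MB-468 down to PHKG1 at 0.849 to 1.97 FPKM.

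All 10 neighbours were higher in MDA-MB-468 in the test over both agents, where 39.0% of the 16071 genes tested were higher in that line. The median log2 difference was 2.73 over the 10 and 0.16 over all genes tested. In DMSO 9 of the 10 were higher, against 26.5% of all genes, and the exception was GBAS (log2 difference 1.26, SE 0.73, adjusted p = 0.21). In PKC412 all 10 were higher, against 37.0% of all genes. The 5 samples of MDA-MB-468 lay above the 5 of ZR75-1 for 9 of the 10 neighbours and for 29.7% of all genes. Of the 160 genes at the top 1% of the log2 differences, 4 were neighbours (LANCL2, SEC61G, PSPH and VOPP1), and 7 of the 10 were in the top 5% (803 genes). PHKG1 stood lower, above 77.6% of the genes tested. The neighbours summed to between 2.14% and 2.87% of all FPKM in MDA-MB-468 samples, mostly SEC61G, and to between 0.165% and 0.197% in ZR75-1.

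**Figure D2:**
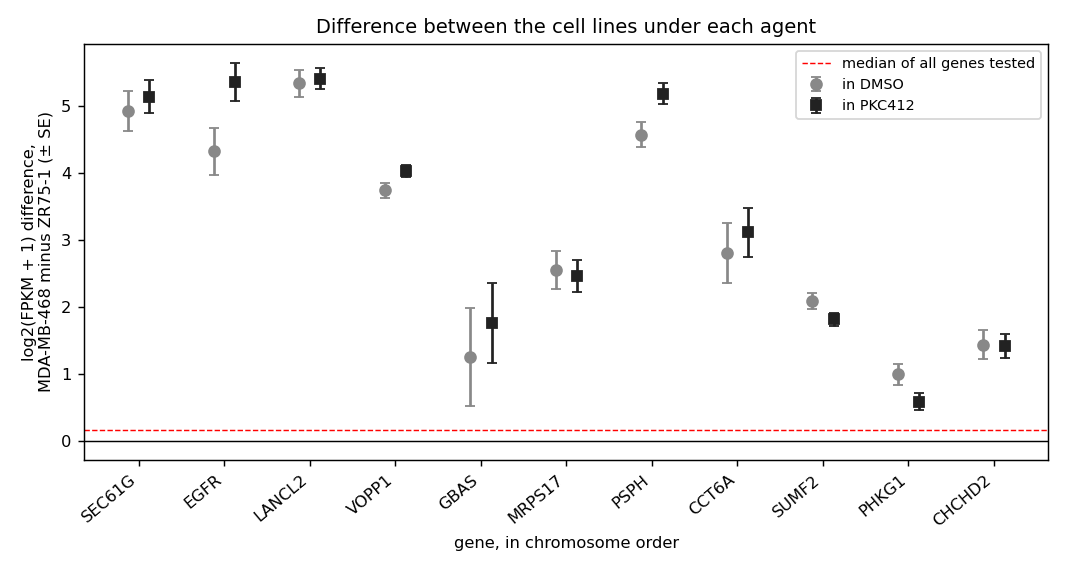
Difference between the cell lines in log2(FPKM + 1), MDA-MB-468 minus ZR75-1, in DMSO (grey circles) and PKC412 (black squares), with the standard error of the limma fit as bars. The dashed line is the median of all genes tested for the difference over both agents (0.16), and the medians were 0.11 in DMSO and 0.19 in PKC412. The values under the agents lie near each other for most genes, from 5.34 and 5.41 for LANCL2 to 0.99 and 0.58 for PHKG1.

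EGFR itself measured 25.8 and 28.9 FPKM in DMSO and 66.9, 31.5 and 44.2 FPKM in PKC412 in MDA-MB-468, and between 0.0734 and 0.802 FPKM in ZR75-1. Its log2 difference between the lines was 4.84 (SE 0.22, adjusted p = 4.6e-07), close on this scale to those of SEC61G, PSPH and LANCL2. The added 1 reduces the difference of EGFR, which reached at most 0.802 FPKM in ZR75-1. The ratio of its mean FPKM between the lines was 59.7 in DMSO and 363 in PKC412. Both ratios divide by very low values, and the ZR75-1 samples in DMSO were far apart, at 0.802 and 0.113 FPKM. The ratios in DMSO and PKC412 were 49.5 and 51.1 for LANCL2, 30.6 and 35.7 for SEC61G, and 30.6 and 44.3 for PSPH. Of the 10 neighbours, 8 had a higher FPKM than EGFR in every MDA-MB-468 sample.

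By position, the log2 differences of the neighbours nearest to EGFR were above those of the farther ones, with PSPH as an exception. SEC61G starts 259 kb before EGFR, LANCL2 346 kb and VOPP1 554 kb after it, and their log2 differences were 5.03, 5.37 and 3.88. The other 7 start between 933 and 1088 kb after EGFR, where log2 differences ran from 0.79 for PHKG1 to 4.88 for PSPH. PSPH and CCT6A, whose starts are side by side, differed from each other in this measure by more than their standard errors (4.88 ± 0.12 and 2.96 ± 0.29, SE). Over the 10 genes the log2 difference fell with the distance from the EGFR start (Pearson r = -0.74, Spearman rho = -0.78, n = 10 genes). These points share all libraries, 7 of them lie within a short stretch, and some overlap each other, so the correlation is a description. It leaves out tested genes that are no members and lie in the same stretch, FKBP9L and ZNF713 among them, whose log2 differences were smaller than those of the 3 nearest neighbours. The added 1 reduces the differences of low genes such as ZNF713 and PHKG1, and the order by ratios of mean FPKM was another. In DMSO and PKC412 the ratio was 6.60 and 16.7 for ZNF713, against 13.6 and 16.6 for VOPP1. It was 5.59 and 3.12 for PHKG1, against 4.30 and 3.54 for SUMF2 and 2.71 and 2.63 for CHCHD2.

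Of the 9 other symbols placed within 2 Mb of the EGFR start, EGFR included, 5 were tested and 4 were higher in MDA-MB-468. FKBP9L, a pseudogene 694 kb away, ran from 8.18 to 10.5 FPKM in MDA-MB-468 and from 6.16 to 7.33 FPKM in ZR75-1 (log2 difference 0.46, SE 0.09, adjusted p = 0.0018). ZNF713, a zinc finger gene 868 kb away, ran from 1.43 to 4.77 and from 0.0486 to 0.326 FPKM (log2 difference 1.40, SE 0.18, adjusted p = 0.00018). NUPR1L, 1097 kb away, ran from 6.52 to 15.7 and from 1.95 to 4.36 FPKM (log2 difference 1.63, SE 0.20, adjusted p = 0.00015). The fifth, the small nucleolar RNA SNORA15 inside CCT6A, did not pass the test (log2 difference 0.02, adjusted p = 0.99). VSTM2A and SEPT14, which also lie in the stretch, stayed under 0.1 FPKM in every sample of both lines and were not tested, nor were 2 more of the 9 (POM121L12 and a microRNA gene).

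Among 24 genes of chromosome 7 tested over 2 to 10 Mb from the EGFR start, 10 (41.7%) were higher in MDA-MB-468 and 3 lower, with a median log2 difference of 0.42. The largest differences were those of IGFBP3 at 4.91, UPP1 at 4.32, SUN3 at 3.47 and DDC at 2.45. The 3 lower genes were COBL at -2.06, ADCY1 at -1.60 and IKZF1 at -0.36. All of these named genes, higher and lower, lie on the SEC61G side of EGFR and were named after their values were seen. COBL is the nearest tested gene beyond SEC61G on that side. Among 678 genes beyond 10 Mb, 286 (42.2%) were higher and 113 lower, with a median of 0.26. On the other chromosomes 5609 of 14563 genes (38.5%) were higher, with a median of 0.16. A log2 difference over 1 was reached by 9 of the 10 neighbours, by 29.2% of genes over 2 to 10 Mb away and by 17.0% of those beyond. With 1 added, a gene under 1 FPKM in every sample cannot reach such a difference, so these shares also depend on the level of the genes.

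**Figure D3:**
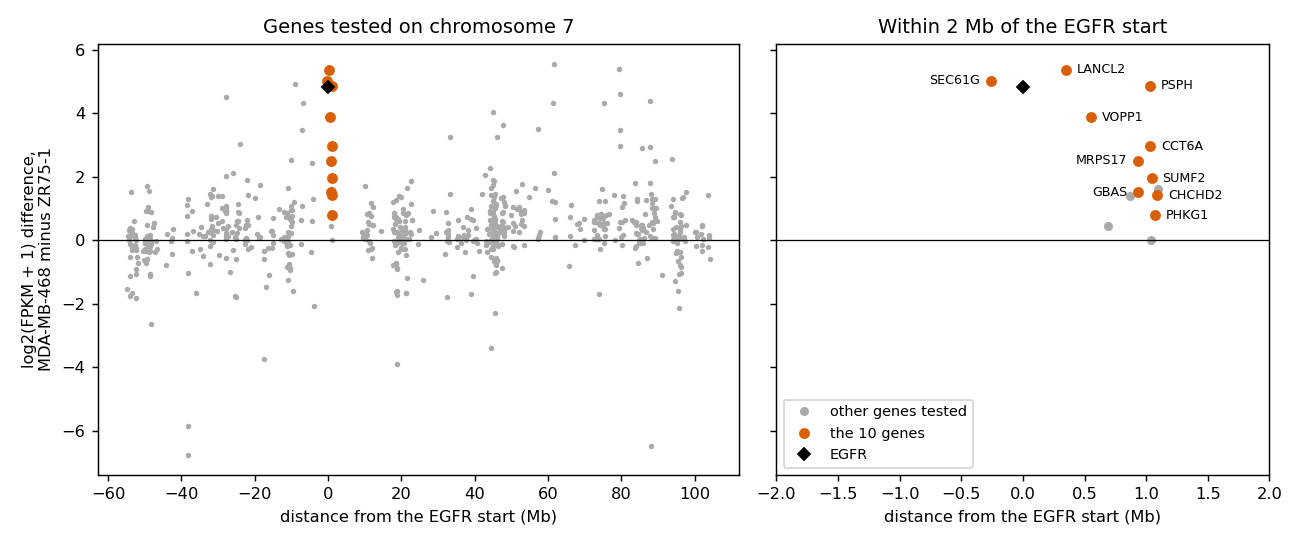
Difference between the cell lines over both agents in log2(FPKM + 1) for the genes tested on chromosome 7, by the distance of their start from the EGFR start in Mb, over the whole chromosome (left) and within 2 Mb (right), with the 10 neighbours in orange, EGFR as a black diamond and other genes in grey. The neighbours stand between 0.79 and 5.37, and the median of genes more than 10 Mb away is 0.26.

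Several neighbours encode 1 part of a complex or pathway whose other parts lie elsewhere in the genome. SEC61G was far out of step with its partners. Of 10 other genes of the translocon, 3 were higher in MDA-MB-468, 2 were lower and 5 did not pass the test, with a median log2 difference of 0.04. SEC61A1, the channel subunit, ran from 115 to 135 FPKM in MDA-MB-468 and from 120.1 to 145 FPKM in ZR75-1 (log2 difference -0.02, adjusted p = 0.85). SEC61B, the third subunit, ran from 238 to 290.4 and from 170.4 to 218 FPKM (log2 difference 0.48, SE 0.09, adjusted p = 0.0018), a call lost when samples were rescaled by median ratios (0.30, adjusted p = 0.056). The FPKM of SEC61G was 37.7 to 57.9 times that of SEC61B in MDA-MB-468 samples and 1.44 to 2.26 times in ZR75-1.

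CCT6A also exceeded its partners. Of 8 other genes of the CCT list, 5 were higher in MDA-MB-468 and 2 lower, with a median log2 difference of 0.93 and a largest of 1.88 for CCT8. CCT3 ran from 352 to 398 FPKM in MDA-MB-468 and from 381 to 414 FPKM in ZR75-1 (log2 difference -0.05, adjusted p = 0.51). CCT2 ran the other way, from 69.8 to 90.5 and from 104 to 200.1 FPKM (log2 difference -0.79, SE 0.21, adjusted p = 0.012). CCT6A stood at 1.74 to 2.32 times the median of the 7 other subunits of the ring in MDA-MB-468 and at 0.410 to 0.729 times in ZR75-1, where the list without CCT6B, the testis form, was used. CCT6B was lower in MDA-MB-468, at 0.735 to 1.04 against 1.17 to 2.32 FPKM (log2 difference -0.55, SE 0.13, adjusted p = 0.0067).

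Of 32 other genes of the small subunit of the mitochondrial ribosome, 16 were higher in MDA-MB-468, 4 were lower and 12 did not pass the test, with a median log2 difference of 0.33. MRPS6, encoded on another chromosome, had the largest difference of them, from 199.9 to 239 FPKM in MDA-MB-468 and from 23.8 to 36.5 FPKM in ZR75-1 (2.81, SE 0.08, adjusted p = 4.5e-08), above the 2.51 of MRPS17. The others lay between -1.23 and 1.52. MRPS17 stood at 4.99 to 9.42 times the median of these genes in MDA-MB-468 and at 1.04 to 2.65 times in ZR75-1.

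All 4 other genes of serine synthesis and of the next step to glycine were higher in MDA-MB-468, with a median log2 difference of 2.71 and each below the 4.88 of PSPH. PHGDH, the first enzyme, ran from 392 to 437 FPKM in MDA-MB-468 and from 17.6 to 30.8 FPKM in ZR75-1 (log2 difference 4.10, SE 0.14, adjusted p = 1.1e-07). PSAT1, the second enzyme, ran from 24.5 to 110.1 and from 0.818 to 2.25 FPKM (log2 difference 4.42, SE 0.23, adjusted p = 9.2e-07). SHMT1 (1.32, SE 0.12, adjusted p = 2.5e-05) and SHMT2 (0.46, SE 0.07, adjusted p = 0.0006), which turn serine into glycine, had smaller differences. PHGDH and PSAT1 lie on other chromosomes, and whether PSPH differs from them in this measure was not tested. The FPKM of PSPH was 0.216 to 0.488 times that of PHGDH in MDA-MB-468 and 0.105 to 0.294 times in ZR75-1.

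Of the 4 other subunit genes of phosphorylase kinase, 2 were higher in MDA-MB-468 and 2 did not pass the test. PHKG2, the liver and testis form of the catalytic subunit, ran from 14.9 to 16.9 FPKM in MDA-MB-468 and from 11.8 to 15.9 FPKM in ZR75-1 (log2 difference 0.19, SE 0.07, adjusted p = 0.049), above PHKG1 in every sample. In a list of paralogs of the neighbours, which also holds a pair of cytochrome c oxidase genes related to CHCHD2 by function, 8 genes were tested, 3 of them higher and 2 lower in MDA-MB-468. SUMF1, the paralog of SUMF2, went the other way, at 8.07 to 8.66 FPKM in MDA-MB-468 and 32.7 to 42.4 FPKM in ZR75-1 (log2 difference -2.07, SE 0.07, adjusted p = 8.6e-08). CHCHD10, the paralog of CHCHD2, was also lower, at 97.3 to 198 against 164 to 358 FPKM (log2 difference -0.74, SE 0.19, adjusted p = 0.0099). The 3 higher were NIPSNAP3A (0.85, adjusted p = 0.027) and NIPSNAP3B (0.16, adjusted p = 0.0046), both of the family of GBAS, and COX4I1 (0.54, adjusted p = 0.048). LANCL1 (0.41, adjusted p = 0.24), LANCL3 (0.05, adjusted p = 0.21) and NIPSNAP1 (-0.21, adjusted p = 0.19) did not pass the test.

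**Figure D4:**
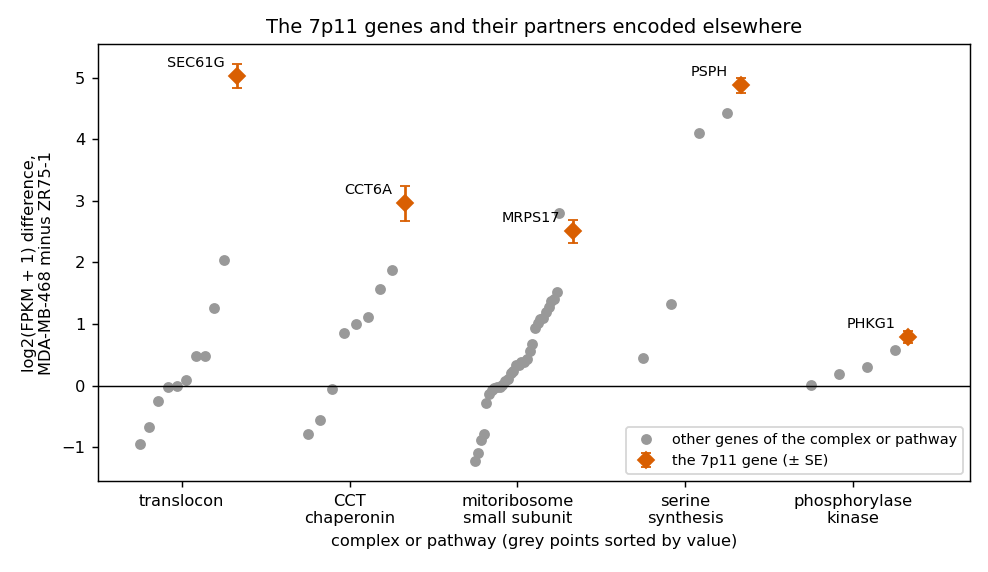
Difference between the cell lines over both agents in log2(FPKM + 1) for 5 of the neighbours (orange diamonds, bars of ± 1 standard error) and for the other genes of their complex or pathway (grey points, sorted). SEC61G at 5.03, CCT6A at 2.96, PSPH at 4.88 and PHKG1 at 0.79 lie above the highest of their partners (SSR1 at 2.04, CCT8 at 1.88, PSAT1 at 4.42 and PHKA2 at 0.57), and MRPS17 at 2.51 lies below MRPS6 at 2.81.

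Copies of CCT6A elsewhere had rows of their own. CCT6P1 ran from 0.688 to 2.08 FPKM in MDA-MB-468 and from 0.117 to 0.541 FPKM in ZR75-1 (log2 difference 0.82, SE 0.11, adjusted p = 0.00022), and CCT6P3 from 4.21 to 7.13 and from 0.429 to 1.5 FPKM (1.72, SE 0.17, adjusted p = 4.2e-05). Both were far lower than CCT6A, and reads of near-identical copies cannot be told apart from these files.

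None of the 10 neighbours passed the test for an effect of PKC412 in MDA-MB-468 (limma), where 1.26% of all genes were called, 202 of 16071. At an unadjusted p under 0.05 stood 3 of the 10 and 16.4% of all genes. In ZR75-1 none passed and 0.946% of all genes were called, and at an unadjusted p under 0.05 stood 3 of the 10 and 11.2% of all genes. In MDA-MB-468 the 10 had a median log2 effect of 0.014, and in ZR75-1 of 0.021, against 0.11 and 0.068 over all genes. No neighbour passed the test of a difference between the effects in the lines (limma), which 0.268% of all genes passed. PSPH alone of the 10 had an unadjusted p under 0.05 in it, as did 7.05% of all genes.

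PSPH came nearest to the threshold. Its 3 PKC412 samples of MDA-MB-468, at 179.8 to 197 FPKM, lay above the DMSO samples at 90.7 and 109 FPKM (log2 effect 0.90, SE 0.17, adjusted p = 0.057). The effect passed the threshold with samples rescaled by median ratios (0.77, adjusted p = 0.023), after adjustment for GC content and length (0.73, adjusted p = 0.0027) and without the third PKC412 sample of ZR75-1 (0.90, adjusted p = 0.046). It did not pass under any other alternative, among them equal FPKM sums, a pseudocount of 0.1, the compared groups alone and the replicate block. In ZR75-1 the log2 effect was 0.29 (SE 0.17, adjusted p = 0.59), and the difference between the effects was 0.61 (SE 0.25, adjusted p = 0.66).

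MRPS17 had lower values in PKC412 in both lines. In MDA-MB-468 its log2 effect was -0.86 (SE 0.26, adjusted p = 0.20), and in ZR75-1 it was -0.77 (SE 0.26, adjusted p = 0.34), and in neither line did the treated samples overlap with the DMSO samples. GBAS, whose GENCODE span contains MRPS17, had log2 effects of 1.53 (SE 0.67, adjusted p = 0.31) and 1.02 (SE 0.67, adjusted p = 0.62). The GBAS samples of ZR75-1 overlapped between the agents, and those of MDA-MB-468 did not. EGFR had a log2 effect of 0.71 (SE 0.32, adjusted p = 0.31) in MDA-MB-468 and of -0.33 (SE 0.32, adjusted p = 0.76) in ZR75-1. VOPP1, LANCL2 and SUMF2 had log2 effects of at most 0.09 in MDA-MB-468, with SE of 0.10, 0.18 and 0.11.

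PKC412 and DMSO samples did not overlap for 7 of the 10 neighbours in MDA-MB-468, with 4 higher and 3 lower in PKC412. This was also so for 55.9% of all genes tested. In ZR75-1 they did not overlap for 4 of the 10 (1 higher and 3 lower) and for 21.7% of all genes. The dependence of FPKM on GC content differed between samples, also within a group, and whether it moved with the agent was not tested. In MDA-MB-468 the slope of log2 FPKM per 10 points of GC was 0.20 and -0.11 for DMSO against -0.40, -0.18 and -0.26 for PKC412. In ZR75-1 the slopes were 0.47 and -0.04 in DMSO and 0.04, 0.49 and -0.21 in PKC412. After adjustment for GC content and length the effect in MDA-MB-468 was 0.02 for CCT6A, which was 0.45 before, 1.10 for GBAS and -1.06 for MRPS17, none past the threshold.

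**Figure D5:**
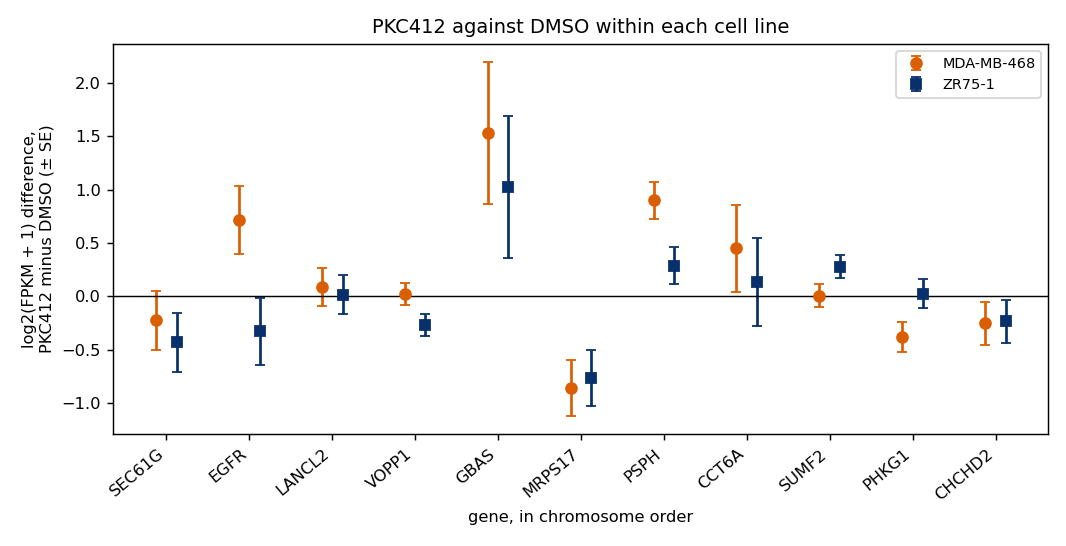
Effect of PKC412 in log2(FPKM + 1), PKC412 minus DMSO, in MDA-MB-468 (orange circles) and ZR75-1 (blue squares), with the standard error of the limma fit as bars, for the 10 neighbours and EGFR in chromosome order. Values run from -0.86 for MRPS17 to 1.53 for GBAS, both in MDA-MB-468, and no gene shown passed the test.

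The genes whose pattern over the 10 samples was most like the mean log2(FPKM + 1) of the neighbours were MCM3, TPM1, SSRP1, CCNB1IP1 and ADI1 (Pearson r from 0.998 to 0.999, n = 10 samples), all on other chromosomes. MCM3, a subunit of the replicative helicase, ran from 101 to 111 FPKM in MDA-MB-468 and from 13.7 to 19.0 FPKM in ZR75-1. The samples fall into 1 cluster for each line, so the likeness rests mainly on the difference between the lines.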

How the data were processed

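RNA-seq was analysed for 10 samples, grouped by the cell line and agent in the sample titles. The authors deposited FPKM per gene symbol, 1 table per sample, made with an in-house pipeline; the processing notes name CASAVA 1.82, TopHat2 and hg19, and the annotation and counter are not given in the sources used here. No step of single reads was visible in the deposited FPKM (values went down to 2.19e-318), so depth is unknown, count tests were not used and precision rests on replicates.

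log2(FPKM + 1) was fitted in limma 3.58.1 (R 4.3.3) by the means of the 4 groups, with a mean-variance trend in eBayes. Genes entered if at least 1 group averaged over 0.1 FPKM, which 16071 did, and p-values were adjusted over all of these by Benjamini-Hochberg (threshold 0.05). Adjusted p-values in the text are from this fit unless another is named. The pseudocount of 1 understates changes of low genes. The contrasts were the lines (over both agents weighted equally, in DMSO and in PKC412), the PKC412 effect within each line, and how far those effects differed. The fit was tested on simulated data. Python 3.11.15, pandas 2.3.3 and matplotlib 3.10.9 served for the rest. Positions, length and GC content came from GENCODE release 29 on GRCh38 by symbol, older symbols through RefSeq synonyms, and were found for 93.6% of symbols.

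The members and lists were chosen with earlier results of these data known. The genes named were set by rule: the 10 members, EGFR, cell type markers, partner, paralog and copy genes where their member is described, genes past the threshold within 2 Mb of the EGFR start, and the 5 most alike in pattern. SNORA15, VSTM2A, SEPT14, POM121L12, IGFBP3, UPP1, SUN3, DDC, COBL, ADCY1 and IKZF1 were added after their values were seen.

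Alternatives were a pseudocount of 0.1, no filter, a filter at 1 FPKM, median-ratio scaling, equal FPKM sums, no trend, a replicate block, the compared groups alone and each sample left out. Added after seeing the data were an adjustment for GC content and length (polynomials of degree 3 per sample) and leaving out the 2 libraries with the highest GC slopes.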

Additional observations from a re-analysis of the deposited data

How the results depend on the processing

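The direction of the difference between the lines was the same for all 10 neighbours under every alternative run. The number called over both agents was 10, and 9 without the second DMSO sample of MDA-MB-468, without the first DMSO sample of ZR75-1, or without the 2 libraries with the highest GC slopes, GBAS being the one lost each time; it stayed 9 in DMSO. In PKC412 it was 9 or 10, and the one lost was GBAS (adjusted p = 0.058 with the replicate block). PHKG1 had a log2 difference of 1.75 with a pseudocount of 0.1, against 0.79. FKBP9L was not called after adjustment for GC content and length (0.14, adjusted p = 0.33), nor was SEC61B (0.11, adjusted p = 0.11). For PKC412 in MDA-MB-468, the 202 genes called became 502 after the GC and length adjustment, 104 with equal FPKM sums, 81 in the groups compared alone and 116 with a pseudocount of 0.1, and ran from 65 to 324 with 1 sample left out. In ZR75-1 the 152 became 492 after the GC and length adjustment and 12 in the groups compared alone, and ran from 59 to 183 with 1 sample left out. For the difference of the effects the 43 became 196 after that adjustment, 28 with equal FPKM sums, 27 with a pseudocount of 0.1, and 68 without the trend and 68 without the filter, and ran from 16 to 64 with 1 sample left out. In each line 1 neighbour was called after the GC and length adjustment (PSPH in MDA-MB-468, and VOPP1 in ZR75-1 at -0.46), and median-ratio scaling called 1 in MDA-MB-468, where leaving out 1 sample called 0 to 1. The cause of these shifts was not tested.

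With the replicate block, the genes called for PKC412 fell to 0 in MDA-MB-468, 0 in ZR75-1 and 0 for the difference of the effects (limma; 703, 589 and 445 genes had an unadjusted p under 0.05), and those of the lines over both agents to 9434 from 10032; no neighbour was called for PKC412. Samples that share a number did not deviate together within a line (correlations of deviations from the group means, over 8733 genes, of -0.41 and -0.23 in MDA-MB-468 and 0.08 and -0.51 in ZR75-1), and between the lines the PKC412 pairs had -0.13, 0.40 and 0.0089 and the DMSO pairs 0.44 each, which with 2 samples a group is 1 value; not every pair was over 0.1, so the numbers were not taken to pair the samples. In this block the third PKC412 sample of each line has no DMSO sample of its number, so it adds nothing to the effects. The block also fits more terms to the same samples, so the fall to 0 genes cannot be read as an absence of effects. Under the block the ZR75-1 effects turned for LANCL2 (-0.15 from 0.02) and CCT6A (-0.14 from 0.13). The values were the same without the third PKC412 sample of ZR75-1.

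No effect of PKC412 that turned direction was past the threshold. In MDA-MB-468 LANCL2 turned to -0.22, VOPP1 to -0.092, SUMF2 to -0.013 and CHCHD2 to 0.021 after the GC and length adjustment, and LANCL2 to -0.036, VOPP1 to -0.10 and SUMF2 to -0.12 with median-ratio scaling. In ZR75-1 LANCL2 turned to -0.23 and CCT6A to -0.080 after that adjustment, and LANCL2 to -0.081 and PHKG1 to -0.0025 with median-ratio scaling. The difference of the effects for CHCHD2 turned to 0.11 after the adjustment and 0.12 without the 2 libraries with the highest GC slopes. With 1 sample left out, the effect of SUMF2 in MDA-MB-468 ran from -0.036 to 0.049, those in ZR75-1 from -0.15 to 0.17 for LANCL2, -0.25 to 0.56 for CCT6A and -0.033 to 0.079 for PHKG1, and the differences from -0.028 to 0.36 for SEC61G, -0.087 to 0.23 for LANCL2, -0.44 to 1.45 for GBAS, -0.39 to 0.21 for MRPS17, -0.11 to 0.70 for CCT6A and -0.21 to 0.12 for CHCHD2. Scaling moved the median of all genes for PKC412 in MDA-MB-468 from 0.11 to 0.04 with median ratios and 0.24 with equal FPKM sums. Depth is unknown, so no count limit could be given.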
